A study of Mus musculus with 6 samples.

Results

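Chemokines are small secreted proteins that guide the movement of leukocytes through receptors coupled to G proteins, and they are named by the spacing of their first cysteines as CC, CXC and C (Xcl) ligands. In bone marrow (BM), Cxcl12 from stromal cells is known to retain stem and progenitor cells, Cxcl2 to draw neutrophils out, and Ccl3, Ccl4, Ccl5 and Xcl1 to be made by activated T cells and natural killer (NK) cells. Described here are 9 chemokine ligand genes, Ccl3, Ccl4, Ccl5, Ccl6, Ccl9, Xcl1, Cxcl2, Cxcl10 and Cxcl12, of 54532 genes in the deposited table and of the 41 genes of the chemokine ligand family in it. They were found by gene name, and they had been chosen by their values in the KO-labelled against the WT-labelled libraries, so that difference is given for them as a description without a test.

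RNA of BM cells from C57BL/6 mice was sequenced at day 100 after transplantation in 3 libraries labelled Phf6 WT (WT 1 to WT 3) and 3 labelled Phf6 KO (KO 1 to KO 3), to ask what loss of Phf6, a chromatin-binding protein gene on the X chromosome, does in leukemia driven by JAK3. Both groups carried JAK3 M511I, an activated Janus kinase brought into lineage-negative (Lin-) donor BM cells by a retrovirus that also encodes GFP. According to the study's methods the WT donors were Phf6 fl/y and the KO donors Vav1-Cre;Phf6 fl/y males, in which Cre acts in hematopoietic cells, and the recipients were male mice, whose own stroma is not deleted for Phf6. The labels say neither whether GFP+ cells were isolated first nor whether each library came from its own animal, so the p-values below measure the spread between these libraries only. The genotype labels name Phf6, Phf7 and Phf8 in turn within each group, and all were read as Phf6, the gene the series names.

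Libraries held 13015823 to 18235095 recovered reads. Phf6 did not separate the labels by its RNA level, with 7.47, 3.67 and 8.02 FPKM (fragments normalised to gene length and library size) in WT 1, WT 2 and WT 3 and 6.73, 5.50 and 5.11 FPKM in KO 1, KO 2 and KO 3, a log2 difference of -0.073 (limma, adjusted p = 0.893). The study's supplement places the loxP sites around only a part of Phf6. A value for the whole gene therefore does not measure the deleted part alone. WT 2 stood apart, with 17.1% of its reads in genes under 1000 bases, compared with 3.11% to 5.01% elsewhere, and its correlation of log2 values with the other WT libraries was 0.880 and 0.894 where that of WT 1 with WT 3 was 0.977. Of the 9 ligand genes, 4 are shorter than 1000 bases, so results are given with and without WT 2. Defining T-cell genes were present in all libraries (Cd3e at 22.6 to 60.0 FPKM).

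Of the ligands, 5 lie side by side on chromosome 11 (GRCm38): Ccl5 (83525778 to 83530518, minus strand), Ccl9 (83572919 to 83578636, minus), Ccl6 (83587882 to 83593087, minus), Ccl3 (83647844 to 83649355, minus) and Ccl4 (83662584 to 83664683, plus). Cxcl2 (90903871 to 90905938, plus) and Cxcl10 (92346638 to 92348889, minus) lie on chromosome 5, Xcl1 (164931644 to 164935527, minus) on chromosome 1 and Cxcl12 (117168535 to 117181367, plus) on chromosome 6. RefSeq promoter entries of the GRCm38.p6 build were matched for 7 of the 9 genes. Ccl4 and Ccl5 had no entry and were not searched. The 250 bases before each start were searched on both strands for the NF-kappa B consensus, the AP-1 motif TGANTCA, the STAT motif (TTC and GAA around a gap of 3 bases) and the core of the interferon-stimulated response element (ISRE), which is TTTC repeated after a gap of 2 bases. The entries with a match are shown, because NF-kappa B, AP-1 and interferon factors are the textbook inducers of these genes, and Ccl6 is shown as the neighbour of Ccl9 on the same strand that holds none of the motifs. Capitals mark the matches, each sequence runs 5′ to 3′ on the gene's own strand, and the Cxcl2 stretch stops where the deposited gene begins.
Ccl9 (chr11:83578637-83578886, minus strand): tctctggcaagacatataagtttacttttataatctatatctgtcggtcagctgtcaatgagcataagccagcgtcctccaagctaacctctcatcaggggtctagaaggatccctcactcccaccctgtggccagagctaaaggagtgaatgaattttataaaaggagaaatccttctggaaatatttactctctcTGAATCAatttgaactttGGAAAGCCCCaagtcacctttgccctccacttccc
Ccl6 (chr11:83593088-83593337, minus strand): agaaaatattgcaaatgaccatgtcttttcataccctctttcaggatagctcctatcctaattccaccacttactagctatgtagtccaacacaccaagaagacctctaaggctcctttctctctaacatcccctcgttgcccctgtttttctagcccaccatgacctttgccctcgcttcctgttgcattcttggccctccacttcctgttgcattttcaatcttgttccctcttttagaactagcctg
Cxcl2 (chr5:90903649-90903870, plus strand): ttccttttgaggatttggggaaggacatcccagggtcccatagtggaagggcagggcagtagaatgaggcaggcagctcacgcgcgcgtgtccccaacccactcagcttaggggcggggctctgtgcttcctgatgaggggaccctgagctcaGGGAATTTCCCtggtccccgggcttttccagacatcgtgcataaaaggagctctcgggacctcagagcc
Cxcl10 (chr5:92348890-92349139, minus strand): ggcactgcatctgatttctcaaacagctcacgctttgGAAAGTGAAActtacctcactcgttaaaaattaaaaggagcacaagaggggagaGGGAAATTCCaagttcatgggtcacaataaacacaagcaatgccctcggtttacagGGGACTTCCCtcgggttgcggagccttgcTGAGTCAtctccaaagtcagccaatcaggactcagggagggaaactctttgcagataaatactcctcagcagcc

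The NF-kappa B consensus was in 3 of the 7 windows (Ccl9, Cxcl2 and Cxcl10), and it is in 3.92% of the 32536 promoter windows of the same length. In Ccl9 it is on the strand opposite to the one shown, where the window reads GGAAAGCCCC, from 35 to 26 bases before the start. In Cxcl2 the capitals are overlapping matches on the opposite strands, from 97 to 87 bases before the RefSeq start, which lies 28 bases past the end of the stretch shown, so that in this stretch they lie 69 to 59 bases from its end. Cxcl10 holds the consensus at 159 to 150 and again at 103 to 94 bases before its start, and the ISRE core, found in 2.98% of all windows, at 213 to 204. The AP-1 motif was in Ccl9 and Cxcl10, against 6.73% of all windows, and the STAT motif was in none of the 7, against 7.04%. A match of letters is a description of the window and not a site in use, and none of the motifs was tested.

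All 9 ligands were lower in every KO-labelled than in every WT-labelled library. The same was so for 18.1% of the 28116 genes with a read, and nothing is read from the count of ligands, because they were chosen on this difference. In RNA of many cells together, fewer cells of a type and less RNA per cell cannot be told apart. Summed over the 9 ligands, 0.169%, 0.338% and 0.161% of the recovered reads of WT 1, WT 2 and WT 3 came from these genes, against 0.00163%, 0.0004% and 0.00149% in KO 1, KO 2 and KO 3. Of the 9 genes, 7 passed the filter of 1 FPKM in at least 3 of the 6 libraries, while Cxcl10 and Cxcl12 did not; a ligand that passed only through the WT libraries had to differ between the groups.

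**Figure D1:**
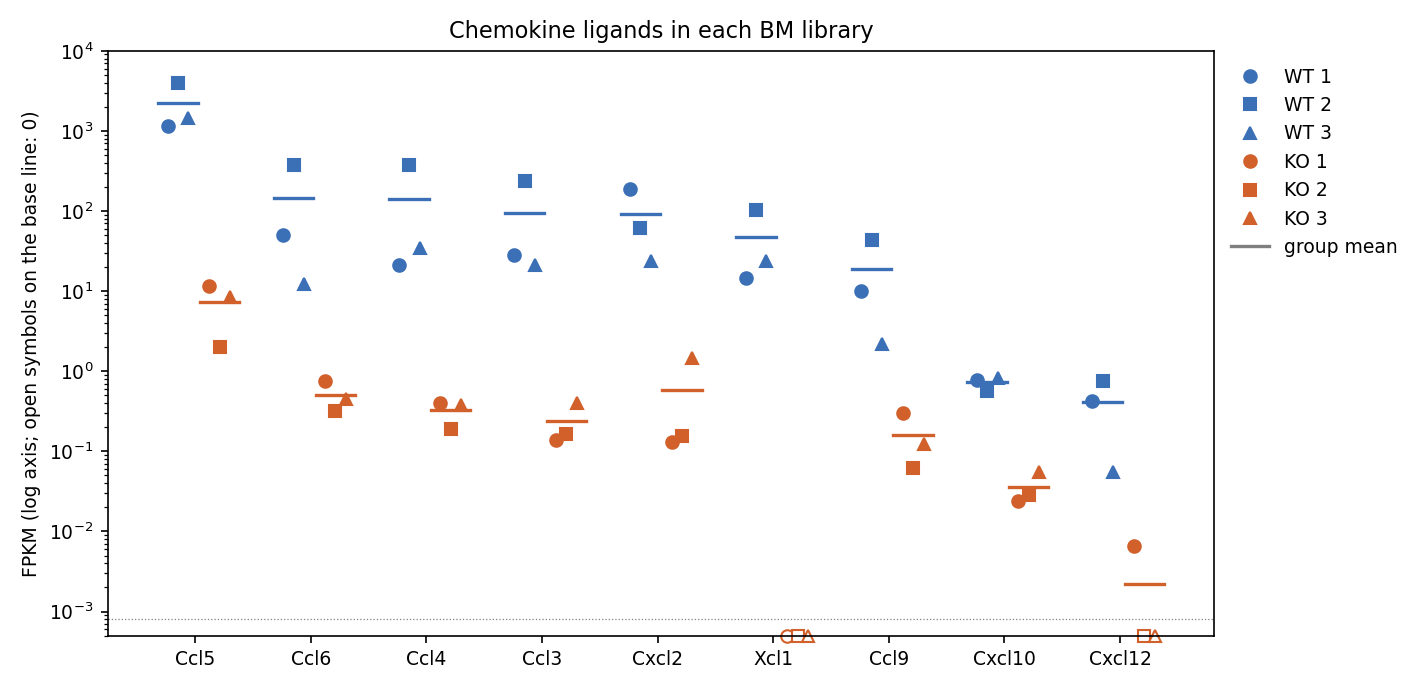
FPKM (log axis) of the 9 chemokine ligands, ordered by the WT mean, in each of the 3 WT (blue) and 3 KO (orange) libraries, with group means as bars and values of 0 as open symbols on the base line. Every WT point lies above every KO point of the same gene, Ccl5 is the highest ligand in all 6 libraries, and Xcl1 is at 0 in all 3 KO libraries.

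Ccl5 (RANTES, ENSMUSG00000035042), which attracts T cells, monocytes and eosinophils through receptors such as Ccr1 and Ccr3, was the leading ligand. It had 1162, 3977 and 1451 FPKM in WT 1, WT 2 and WT 3 and 11.5, 1.99 and 8.41 FPKM in KO 1, KO 2 and KO 3. The lowest WT library was 101-fold above the highest KO library. In WT it ranked between place 11 and place 35 among protein-coding genes, and in KO between place 4146 and place 8685. On the log2(FPKM + 1) scale, which understates differences of low genes, KO was lower by 8.06 with a standard error (SE) of 0.70 (n = 3 per group), and by 7.53 without WT 2. WT 2 was the highest library on FPKM, but after rescaling to TPM, FPKM brought to the same total in each library, the 3 WT libraries lay within 1.35-fold of each other, at 3522, 4432 and 4741 TPM, with WT 3 highest. Ccl5 alone made up 77.0% to 92.5% of the summed FPKM of the 9 ligands in WT and 68.3% to 86.7% in KO.

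Ccl3 and Ccl4 (MIP-1 alpha and MIP-1 beta), neighbours that are released together by activated lymphocytes and macrophages (Ccl3 binds Ccr1), had similar values. Ccl3 (ENSMUSG00000000982) had 28.0, 234 and 21.3 FPKM in the WT libraries and 0.140, 0.166 and 0.405 FPKM in the KO libraries. Ccl4 (ENSMUSG00000018930) had 20.9, 371 and 34.3 FPKM in WT and 0.407, 0.192 and 0.376 FPKM in KO. For each gene WT 2 was far above WT 1 and WT 3, and the KO values were those of 2 to 5 reads per library. The log2 differences were -5.44 with an SE of 0.87 for Ccl3 and -5.64 with an SE of 1.012 for Ccl4, and -4.37 and -4.40 without WT 2. The highest WT library exceeded the lowest 11-fold for Ccl3 and 17.7-fold for Ccl4, and 3.75-fold and 6.52-fold in TPM. Ccl3 and Ccl4 are related copies, as are Ccl6 and Ccl9, and reads could be split between such copies in a way the table does not show.

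Ccl6 and Ccl9, rodent ligands of Ccr1 that are known from myeloid cells, were the CC ligands with the widest spread among WT libraries. Ccl6 (ENSMUSG00000018927) had 50.1, 377 and 12.4 FPKM in WT and 0.748, 0.318 and 0.450 FPKM in KO. Ccl9 (ENSMUSG00000019122) had 10.1, 43.8 and 2.16 FPKM in WT and 0.300, 0.0626 and 0.122 FPKM in KO. In both, WT 2 was highest and WT 3 lowest, and WT 2 was 30.5-fold above WT 3 for Ccl6 and 20.3-fold for Ccl9. Among the ligands above the filter the gap between the groups was smallest here, with the lowest WT library 7.21-fold (Ccl9) and 16.5-fold (Ccl6) above the highest KO library, next to 16.6-fold for Cxcl2. The log2 differences were -5.41 with an SE of 1.12 and -3.33 with an SE of 0.89, and -4.13 and -2.35 without WT 2.

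Xcl1 (lymphotactin, ENSMUSG00000026573), the C chemokine that CD8 T cells and NK cells secrete to attract cross-presenting dendritic cells, had 14.7, 103 and 23.4 FPKM in WT 1, WT 2 and WT 3. It had no reads in any KO library, against 119, 635 and 190 reads in WT. Set against 3 reads per KO library, the most that a count of 0 allows, the WT mean was at least 138-fold higher, and at least 55.7-fold higher without WT 2. Its log2 difference was -5.10 with an SE of 0.68, and -4.29 without WT 2, values that depend on the pseudocount of 1.

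Among the CXC ligands, Cxcl2 (MIP-2, ENSMUSG00000058427), which draws neutrophils through Cxcr2, had another order of libraries. It had 190.3, 61.2 and 23.9 FPKM in WT 1, WT 2 and WT 3, and 0.130, 0.154 and 1.44 FPKM in KO 1, KO 2 and KO 3. WT 1 was its highest library, and KO 3 held 48 reads where KO 1 and KO 2 held 5 each. The log2 difference was -5.50 with an SE of 0.75, and -5.55 without WT 2, the only ligand above the filter for which leaving out WT 2 did not make the difference smaller.

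Cxcl10 and Cxcl12 were low in both groups. Cxcl10 (IP-10, ENSMUSG00000034855), an interferon-induced ligand of Cxcr3, had 0.777, 0.567 and 0.831 FPKM in WT and 0.0238, 0.0282 and 0.0552 FPKM in KO. These were 71 reads in WT and 4 in KO, a ratio of 21.0 with a 95% counting interval from 7.85 to 79.1 (exact binomial, counting error only). Cxcl12 (SDF-1, ENSMUSG00000061353), the ligand of Cxcr4 and Ackr3, had 0.420, 0.749 and 0.0552 FPKM in WT, 0.00657 FPKM in KO 1 and none in KO 2 and KO 3. These were 132 reads against 1 read, a ratio of 156 with an interval from 27.5 to 6210, and without WT 2 a ratio of 97.9 with an interval from 16.9 to 3930. The stromal cells that are the known source of Cxcl12 were all but unseen: Lepr, Kitl, Pdgfra and Adipoq had at most 0.493 FPKM in any library, and of the 10 stromal markers only Pdgfrb passed the filter. It was higher in KO, at 13.6 to 22.3 FPKM against 0.0589 to 0.367 FPKM in WT. Its KO mean of 17.6 FPKM was most of the stromal KO mean of 18.6 FPKM. Of the other stromal markers only Col1a1 and Col3a1 parted the groups, lower in KO, at no more than 0.246 FPKM in any library. Pdgfrb passed only through the KO libraries, so its p-value is not given.

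Ordered by mean FPKM, which is per gene length, the WT libraries gave Ccl5, Ccl6, Ccl4, Ccl3, Cxcl2, Xcl1, Ccl9, Cxcl10 and Cxcl12. The ranges of neighbours in this order overlapped except between Ccl5 and Ccl6 and between Ccl9 and Cxcl10. In KO the order was Ccl5, Cxcl2, Ccl6, Ccl4, Ccl3, Ccl9, Cxcl10, Cxcl12 and Xcl1, and neighbours did not overlap between Ccl5 and Cxcl2, between Ccl9 and Cxcl10 and between Cxcl10 and Cxcl12. WT 2 was the highest WT library for 7 of the 9 ligands on FPKM and for 5 on TPM. KO 2 was highest for none and lowest for 5 of the 8 ligands with a read in KO.

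The whole ligand family was then counted. Of 41 family members 32 had a read in at least 1 library and 10 passed the filter, of which 8 fell, none rose and 2 did not pass the test (limma, adjusted p under 0.05). Of all 13393 genes tested, 13.3% were called lower and 13.1% higher. Of these 10, 7 are the ligands described above, which make up 7 of the 8 that fell, so the family count rests on their choice and nothing is read from it. This leaves 3 that were not chosen on the comparison, of which 1 fell. Ccl2 (MCP-1), the monocyte attractant, had 2.11, 3.96 and 1.02 FPKM in WT and no reads in the 3 KO libraries. Pf4, the platelet chemokine, had 2.07, 25.4 and 1.34 FPKM in WT and 0.0745, 0.0881 and 0 FPKM in KO. Both passed the filter only through the WT libraries, as a gene that differs would, so their p-values are not given. Ccl25, the thymic and gut ligand of Ccr9, had 0.975, 0.834 and 1.44 FPKM in WT and 1.90, 2.28 and 1.97 FPKM in KO, where every KO value lay above every WT value (limma, adjusted p = 0.0937). Without WT 2, 9 of the 10 fell, where 25.3% of all genes were called lower and 26.8% higher, and without KO 1, KO 2 or KO 3 the count was 5. The calls lost without each KO library were those of Ccl2, Ccl6 and Ccl9.

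Of the 32 family members outside the 9 ligands, 9 had no read in any library and 13 had reads in WT libraries only. Groups did not overlap, with KO lower, in 8 of the 23 with a read, among them Ppbp, Cxcl3 and Cxcl9, beside 18.1% of the 28116 genes with a read. KO was higher without overlap in Ccl25 and Ccl28. The share of all genes with KO higher was not computed, and nothing is read from these counts. Ccl28 had 8 reads in KO and none in WT. Cxcl16, a ligand of Cxcr6, overlapped, at 0.470 to 0.986 FPKM in WT and 0.249 to 0.505 FPKM in KO. Cxcl1 and Cxcl3, close relatives of Cxcl2 that share its receptor, had at most 0.449 and 0.511 FPKM in any library.

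**Figure D2:**
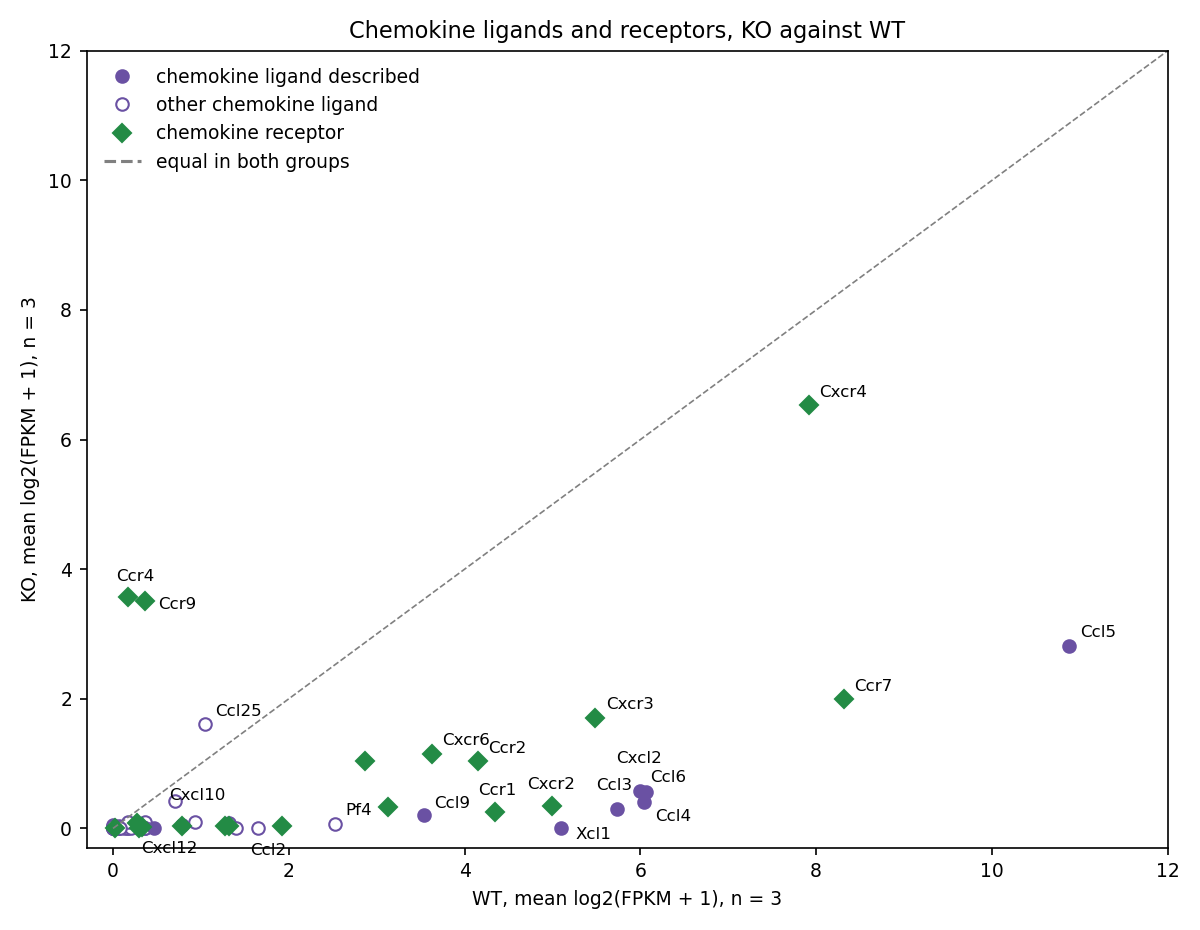
Mean log2(FPKM + 1) of the 41 chemokine ligands (circles, filled for the 9 described) and 19 receptors (diamonds) in WT (horizontal) and KO (vertical), n = 3 libraries per group, with the dashed line at equal values. All 9 filled circles lie under the line, Ccl5 farthest to the right, while Ccr4, Ccr9 and Ccl25 lie above it.

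The genes beside the CC cluster on chromosome 11 were read in the same way. Heatr9, next to Ccl5, had 39.8, 3.90 and 57.7 FPKM in WT and 0.401, 0.271 and 0.166 FPKM in KO. It passed the filter only through WT, so its p-value is not given, and its call was lost without WT 1 or any KO library. Wfdc17, beyond Ccl4, is a secreted protein gene of myeloid cells and had 152, 160 and 18.0 FPKM in WT and 0.705, 0.596 and 1.75 FPKM in KO (limma, adjusted p = 0.00542). Taf15, an RNA-binding protein gene at the other edge, overlapped between the groups, at 39.6 to 59.5 FPKM in WT and 28.3 to 44.0 FPKM in KO (limma, adjusted p = 0.221).

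The receptors, which the rule did not use, split by direction. Of 19 chemokine receptor genes 12 passed the filter, of which 8 fell, 2 rose and 2 did not pass, where 13.3% of all genes tested were called lower and 13.1% higher. Of the 8, 4 had no KO library at 1 FPKM and passed the filter only through WT, among them Ccr1, Cxcr2 and Cx3cr1, and both that rose passed only through KO. Such calls were favoured by the filter, so the p-values of these genes are not given. Ccr1, the receptor of Ccl3, Ccl5, Ccl6 and Ccl9 on myeloid cells, had 39.3, 20.9 and 8.59 FPKM in WT and 0.0947, 0.179 and 0.329 FPKM in KO, a log2 difference of -4.09 with an SE of 0.52. Ccr3, the eosinophil receptor of Ccl5, did not pass the filter, with 0.495, 1.79 and 0.217 FPKM in WT and at most 0.0388 FPKM in KO.

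Cxcr2, the neutrophil receptor of Cxcl2, had 71.8, 25.6 and 15.9 FPKM in WT and 0.106, 0.0834 and 0.734 FPKM in KO (log2 difference -4.65, SE 0.56). Its order of libraries within WT was that of its ligand, with WT 1 highest and WT 3 lowest, and KO 3 was the highest KO library for the receptor and the ligand alike. Cxcr3, the effector T-cell receptor of Cxcl10, had 42.2, 36.4 and 55.0 FPKM in WT and 1.46, 2.46 and 3.12 FPKM in KO (log2 difference -3.78, SE 0.30, limma, adjusted p = 0.000480). Cxcr4, the receptor of Cxcl12, was among the highest receptors in both groups, with 290, 140 and 343 FPKM in WT and 112, 82.4 and 82.9 FPKM in KO. The groups did not overlap, but the test gave a limma adjusted p = 0.0543, and 0.000954 once WT 2 was left out. The other Cxcl12 receptor, Ackr3, had 4 reads in WT and none in KO. Xcr1, the Xcl1 receptor of dendritic cells, overlapped between the groups, at 0.0869 to 0.439 FPKM in WT and 0 to 0.157 FPKM in KO, and was not tested.

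Receptors of ligands other than these 9 held the receptor with the highest WT mean and both that rose. Ccr7, which leads naive T cells to lymph nodes, fell from 187, 605 and 283 FPKM to 4.83, 1.73 and 2.98 FPKM (log2 difference -6.32, SE 0.50, limma, adjusted p = 0.000499). Ccr9, the thymic homing receptor, rose from 0.253, 0.373 and 0.252 FPKM to 10.96, 9.53 and 10.9 FPKM (log2 difference 3.15, SE 0.21), and Ccr4 rose from 0.168, 0 and 0.230 FPKM to 8.26, 15.3 and 10.02 FPKM (log2 difference 3.39, SE 0.28). Ccr2, Cxcr6 and Cx3cr1 fell as well, and the call of Cx3cr1 was lost without KO 1 or KO 2. Of the 6 atypical receptors, which take up chemokines without G protein signalling, only Ccrl2 was tested, and it fell (limma, adjusted p = 0.0274), a call lost without WT 1 or any KO library (up to 0.103).

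Genes that carry or trim the chemokine signal moved less uniformly. Of 18 such genes 17 were tested, of which 7 fell, 1 rose and 9 did not pass, beside 13.3% lower and 13.1% higher over all genes. Those that fell were Arrb1 and Arrb2 (the beta-arrestins that switch receptors off), Rgs1 and Rgs2 (which shorten G protein signalling), Dock2, Ptk2b and Srgn. Of these, rescaling to TPM ended the calls of Arrb1, Rgs2, Dock2 and Ptk2b (limma, adjusted p = 0.156, 0.399, 0.770 and 0.0952), and leaving out KO 3 those of Rgs2, Dock2, Ptk2b and Srgn, with 0.0642, 0.163, 0.0577 and 0.0860 as the highest adjusted p without 1 library. Srgn, the granule proteoglycan that stores Ccl3 and Ccl5 before release, had a mean of 332 FPKM in WT and 60.1 FPKM in KO (limma, adjusted p = 0.0186), a 5.52-fold difference where its cargo Ccl5 differed 301-fold between the group means. Without WT 2 these were 3.45-fold and 179-fold. Dpp4, the protease that clips Ccl5, Cxcl10 and Cxcl12, rose from 18.3 ± 9.59 to 67.7 ± 4.64 FPKM (SD, n = 3, limma, adjusted p = 0.0109, and up to 0.0524 without KO 1 or KO 3). Gnai2, the main Gi subunit in leukocytes, did not pass (limma, adjusted p = 0.0693).

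Among 14 inducers and transcription factors of chemokine genes, all tested, 8 fell, none rose and 6 did not pass, beside the same shares of 13.3% and 13.1% over all genes. The inducing cytokines were all in the first group: Il1b fell from a mean of 127 to 0.782 FPKM (limma, adjusted p = 0.00509), Ifng from 32.2 (18.8 without WT 2) to 1.34 FPKM (adjusted p = 0.00497) and Tnf from 9.86 to 0.637 FPKM. Tnf and Relb passed the filter only through WT, so their p-values are not given. Tbx21 (T-bet), which drives Ifng, Ccl3, Ccl5 and Cxcr3 in effector T cells, fell from 42.5 ± 9.58 to 1.84 ± 0.843 FPKM (SD, n = 3, limma, adjusted p = 0.000553). Of the NF-kappa B subunits Rela, Relb and Rel fell, the calls of Rela and Rel being lost without KO 2 or KO 3, and that of Rel also without KO 1 (limma, adjusted p up to 0.0715 and 0.0667) and on TPM (0.244 and 0.168), while Nfkb1 (15.5 and 13.3 FPKM) and Nfkb2 (29.3 and 28.1 FPKM) did not pass. Klf13, a factor named for its binding to the Ccl5 promoter, had 41.7 ± 19.9 FPKM in WT and 50.9 ± 15.5 FPKM in KO and did not pass (limma, adjusted p = 0.604).

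Markers of some of the cell types that make these ligands moved with them. The T-cell sums overlapped between the groups only through WT 2, and every KO sum lay above those of WT 1 and WT 3. The only tested stromal marker, Pdgfrb, was higher in KO. The part of these cell types in the differences was not tested. The counts below stand beside 13.3% of all genes called lower and 13.1% called higher. The filter was passed only through WT by 2 of the 12 neutrophil and 3 of the 4 monocyte markers that fell. The same was so for 4 of the 8 cytotoxic markers that fell, so these calls were favoured by the filter. All 12 neutrophil markers fell, and their summed FPKM was 33375, 94066 and 6766 in WT 1, WT 2 and WT 3 and 92.2, 267 and 285 in KO 1, KO 2 and KO 3. Of the 10 monocyte and macrophage markers 4 of the 8 tested fell, with sums of 319 to 4760 FPKM in WT and 13.5 to 23.9 FPKM in KO, though the calls of Csf1r and C1qc were lost without any 1 of the KO libraries (limma, adjusted p up to 0.0570 and 0.138). Of the 10 cytotoxic and NK markers 8 of the 9 tested fell, among them Nkg7, Klrd1, Klrk1, Prf1 and Fasl, with only that of Gzmb lost when 1 library was left out (WT 1, WT 3, KO 2 or KO 3, limma, adjusted p up to 0.0824), while Gzma rose from 12.9, 50.8 and 27.9 FPKM to 587, 566 and 615 FPKM (limma, adjusted p = 0.00165). Because of Gzma the cytotoxic sums came to 823 to 1371 FPKM in WT and 583 to 652 FPKM in KO. Of the 7 T-cell markers 1 rose, Cd4, and 6 did not pass, with sums of 695 to 1438 FPKM in WT and 864 to 1124 FPKM in KO. The sums of WT 1 and WT 3 were 695 and 778 FPKM. Without WT 2, 3 of these markers were called higher and 1 lower, beside 26.8% and 25.3% of all genes.

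Other populations also differed. B-cell marker sums were 703 to 1831 FPKM in WT and 15.3 to 68.9 FPKM in KO, with 1 of 3 tested markers called lower, and those of eosinophils and basophils 25.2 to 4394 and 1.5 to 2.0 FPKM, with 1 of 4, Prg2, a call lost without WT 1 or any 1 of the KO libraries (limma, adjusted p up to 0.0984). Dendritic cell markers summed to 16.7 to 26.6 FPKM in WT and 0.356 to 0.410 FPKM in KO, with Siglech at 0 in KO. The only tested marker, Itgax, was called lower but had passed the filter only through WT. Platelet markers summed to 4.70 to 31.9 and 1.24 to 1.84 FPKM, with none of 2 called, and the 4 endothelial markers to at most 0.107 FPKM in any library.

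**Figure D3:**
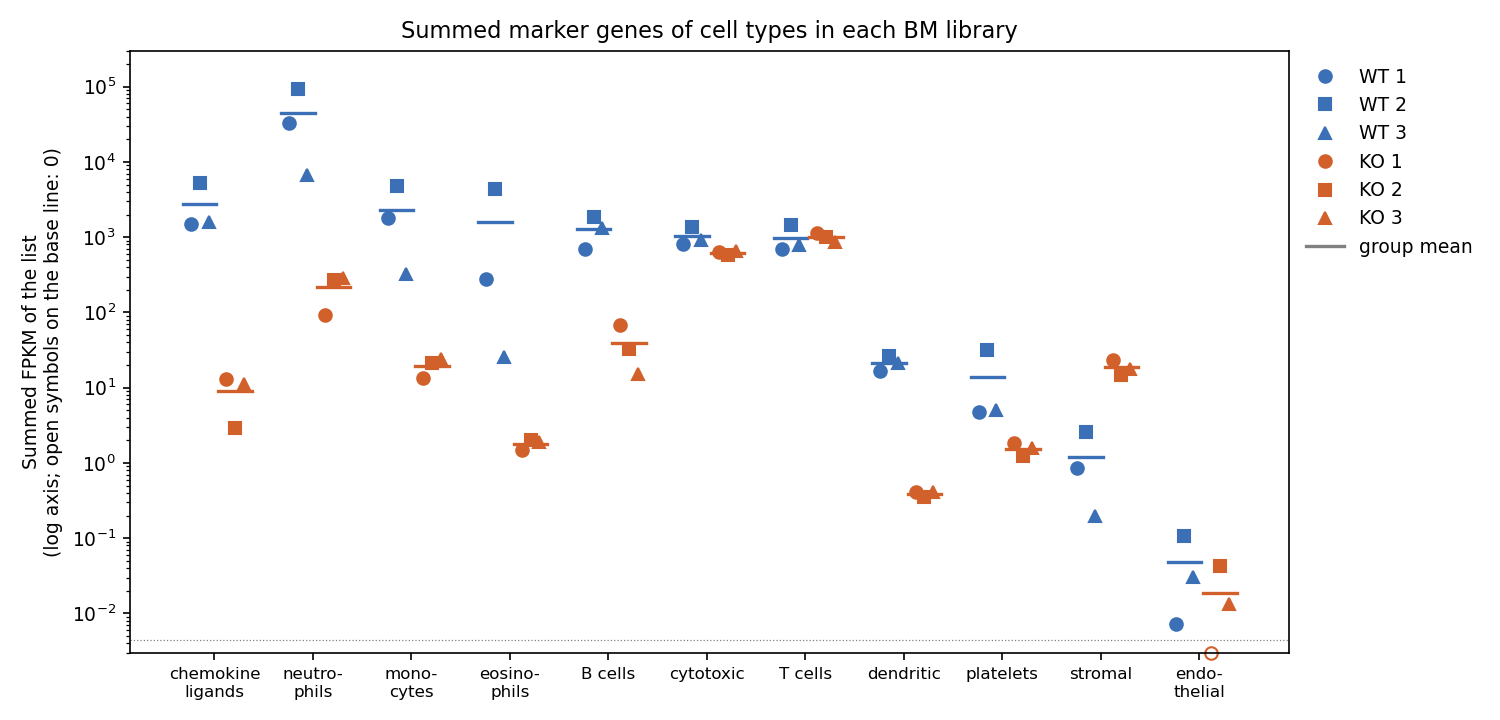
Summed FPKM (log axis) of the 9 chemokine ligands and of 10 lists of cell type markers in each library, WT in blue and KO in orange, with group means as bars and 0 as an open symbol on the base line. The ligand sum (1477 to 5169 in WT, 2.91 to 13.2 in KO) parts the groups. So do the neutrophil, monocyte, eosinophil and basophil, B-cell, cytotoxic, dendritic and platelet sums, all lower in KO. The stromal sums are higher in KO, through Pdgfrb, and the endothelial sums of the groups overlap. The T-cell sums overlap only through WT 2.

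After these values were seen, each ligand was set against the summed markers of the same library. Relative to the neutrophil sum, the groups overlapped for 8 of the 9 ligands, all but Xcl1, which was at 0 in KO. That sum, mostly S100a8 and S100a9, was itself lower in every KO library and ranged from 6766 to 94066 FPKM within WT. Overlap was thus favoured in advance, and nothing is read from it. Cxcl2 was 0.570%, 0.0651% and 0.353% of the neutrophil sum in WT 1, WT 2 and WT 3 and 0.141%, 0.0574% and 0.506% in KO 1, KO 2 and KO 3. Ccl6 was 0.150%, 0.400% and 0.183% in WT and 0.811%, 0.119% and 0.158% in KO. Ccl9 was 0.0302% to 0.0466% in WT and 0.0234% to 0.325% in KO. Ccl5 was 3.48%, 4.23% and 21.4% of that sum in WT and 12.4%, 0.742% and 2.95% in KO. The WT mean of the neutrophil sum was 208-fold that of KO, and for the ligand sum the ratio was 300.0-fold. Without WT 2 these ratios were 93.4-fold and 167-fold.

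Relative to the summed T-cell markers, whose levels overlapped between the groups only through WT 2, all 9 ligands were lower in every KO library. This outcome was fixed in advance, because the ligands were chosen on that difference. Their lowest WT library was at least 7.21-fold above the highest KO library, while the T-cell sums lay between 695 and 1438 FPKM. Per T-cell sum, the ratio of the WT to the KO mean was 288-fold for Ccl5, 304-fold for Ccl3, 336-fold for Ccl4, 179-fold for Cxcl2 and 22.8-fold for Cxcl10. Without WT 2 it was 242-fold for Ccl5, 134-fold for Ccl3, 113-fold for Ccl4, 236-fold for Cxcl2 and 29.0-fold for Cxcl10. Relative to the cytotoxic sum all 9 were lower as well, an outcome fixed in the same way. Ccl5 was at 141%, 290.0% and 156% of that sum in WT and 1.82%, 0.340% and 1.29% in KO. These ratios set levels side by side and do not tell which cells made the RNA.

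**Figure D4:**
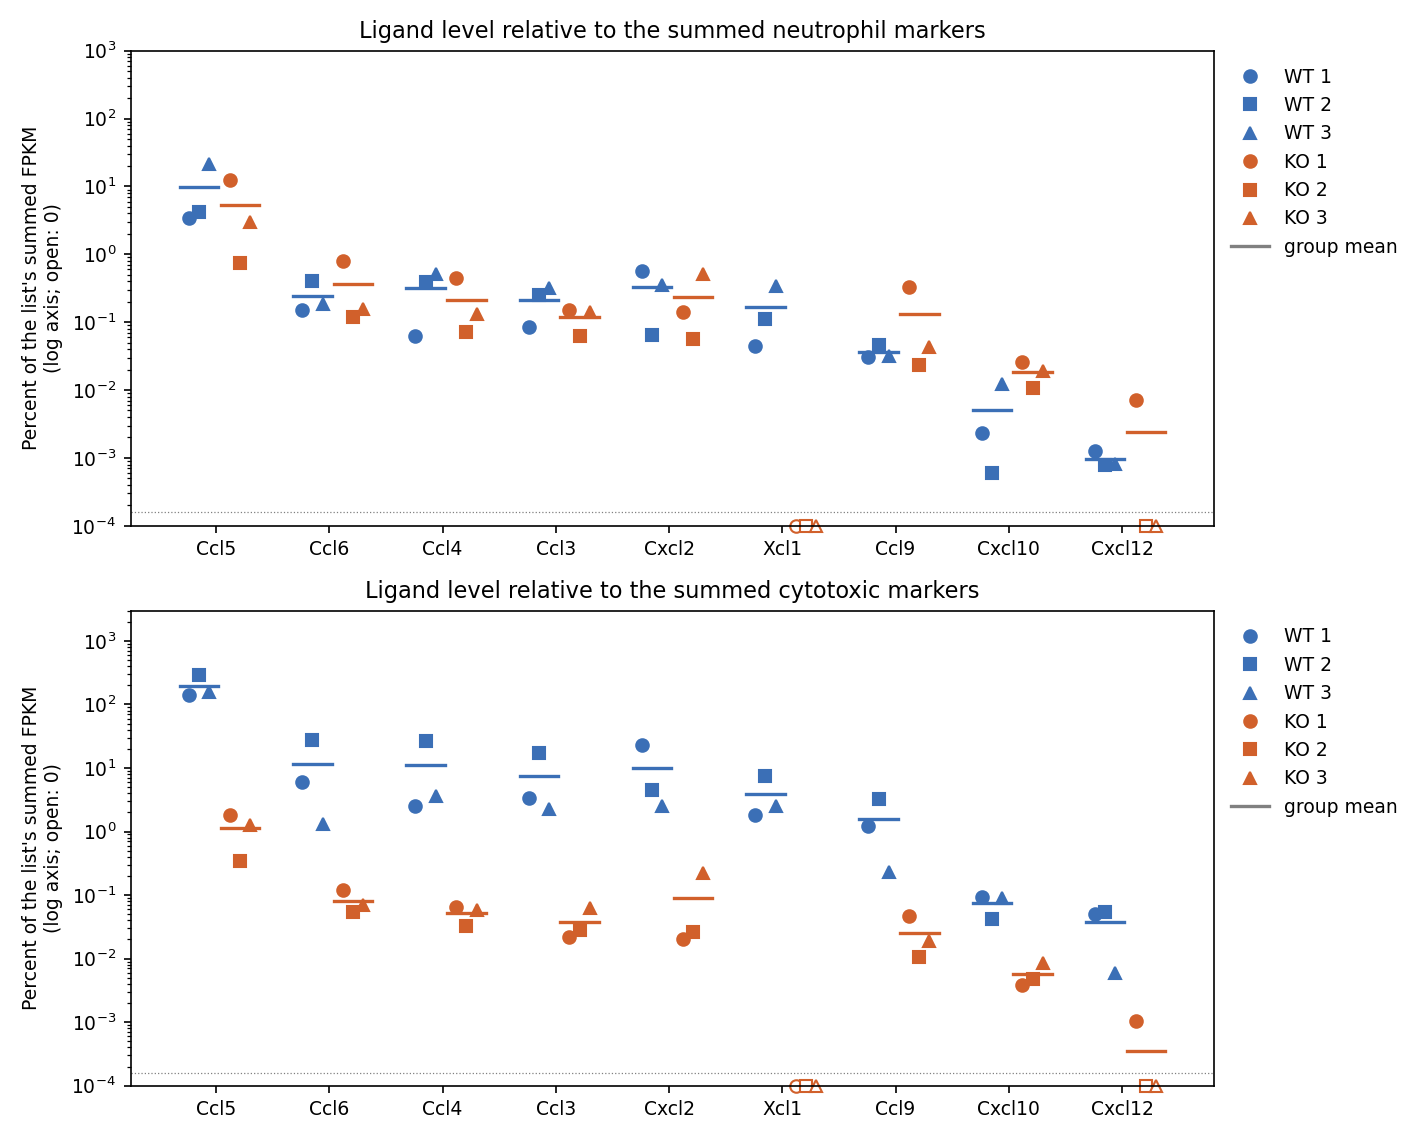
FPKM of each chemokine ligand as a percentage of the summed FPKM of the 12 neutrophil markers (top) and of the 10 cytotoxic markers (bottom) in the same library, on log axes, with group means as bars and 0 as open symbols on the base line. In the upper panel WT (blue) and KO (orange) overlap for all ligands but Xcl1, and in the lower panel KO lies under WT for all 9.

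Across the 6 libraries, other genes followed the ligands closely. For each ligand above the filter, the 2 protein-coding genes of 10387 with the highest Pearson r of log2(FPKM + 1) were named. These were Tubb6 and Cryzl2 for Ccl3, Ctsf and Hcst for Ccl4, Mkl1 and Gmip for Ccl5, Irf5 and Ier3 for Ccl6, Ffar2 and Mogat2 for Ccl9, Klk8 and Tmem37 for Xcl1, and Mapk14 and Cxcr2 for Cxcl2, with r between 0.997 and 1.000. Between 466 (Cxcl2) and 692 (Ccl3) genes had an r over 0.95 with the ligand. With 6 points in 2 groups, such values are a description of shared levels in the same libraries.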

How the data were processed

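The authors extracted RNA of BM cells with Trizol and made libraries with a NEBNext kit. Per the submitters' processing notes the tools were HISAT2 2.0.5 and featureCounts 1.5.0-p3 and the build GRCm38 (mm10); use of strand is not given in the sources used here. The authors deposited FPKM per gene and library, with gene lengths and coordinates. FPKM times gene length gave whole multiples of 1 step for 100% of the values above 0 (tolerance 0.001), from which reads were recovered; the authors' library size was 0.645 to 1.21 times their total. A count of 0 allowed up to 0.161 to 0.255 RPM, relative to the authors' library size. Intervals and floors cover counting error only.

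Genes with at least 1 FPKM in at least 3 of the 6 libraries (13393) were compared on log2(FPKM + 1) by limma 3.58.1 (eBayes with trend, two-sided) in R 4.3.3, with Benjamini-Hochberg adjustment over all genes and a threshold of 0.05. The study used a count model; the unit here called for a log-scale test. An exact permutation test of 3 against 3 cannot go below 0.1. The script was tested on simulated data. The ligands and all gene lists were chosen with earlier results of these data known. Genes named are the 9 ligands, their best known receptors, other tested ligands, up to 6 genes per list with the smallest p, the most alike genes, markers at 0 and the neighbours of the Ccl cluster; other names were chosen after their values were seen. Alternatives changed the pseudocount, filter, scaling, length centring, model, replicate block or libraries. Where a symbol had several copies, that on a main chromosome was used. Promoter sequences are from RefSeq. Results for some listed genes are not reported here.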

Additional observations from a re-analysis of the deposited data

How the results depend on the processing

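The 9 ligands kept their direction under every alternative run, namely 18 for those above the filter and 12 for Cxcl10 and Cxcl12. They were chosen on this difference and their groups did not overlap. Leaving out a library or changing the pseudocount or filter could therefore not reverse it, and nothing is read from the kept direction. The median log2 difference of the 9, -5.41, was -7.19 with a pseudocount of 0.1 and lay between -6.07 and -4.29 when 1 library was left out, with -4.29 without WT 2. The family count of 8 lower was 5 to 9 over the libraries left out, with 5 without KO 1, KO 2 or KO 3, where fewer samples are left. No ligand was called higher except 1, Ccl25, with array weights. The counts of receptors that fell (6 to 10) and rose (2) moved by less than 1.5 times throughout. Of all genes 3539 were called, 1837 at a mean FPKM of at least 5 (fewer genes tested), 8461 with array weights and 1934 to 6967 when 1 library was left out, the highest without WT 2. By voom on the recovered reads 3386 were called, and with a replicate block 2676. The deviations of same-numbered libraries correlated at 0.0954, 0.105 and -0.153, and only WT 1 and KO 1 correlated best with their own number. These values do not show that the numbers pair the samples, and with so few libraries they cannot exclude it.

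The median of all genes was 0.086, but 0.86 after rescaling to TPM, where 67.8% of calls were higher against 49.6%, and 0.21 after quantile normalization, so that differences on those scales are relative to these shifts. Of the genes named as fallen, rescaling to TPM ended the calls of Arrb1, Rgs2, Dock2, Ptk2b, Rel, Rela, Gzmb and Lta, and those of Rela, Dock2 and Lta were also lost with the replicate block; the cause was not tested. Leaving out a KO library ended the call of Srgn, Ltb and Csf1r, among others (limma, adjusted p up to 0.0860, 0.0865 and 0.0570). Depth limits Xcl1, Cxcl10 and Cxcl12 in KO, where 0 to 4 reads were seen per gene.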

Other observations

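Cytokines outside the chemokines, 32 genes of which 3 are also counted among the inducers above, showed the ligands' direction in part. Of the 11 above the filter 6 fell, 2 rose and 3 did not pass (limma, adjusted p under 0.05), beside 13.3% of all genes called lower and 13.1% called higher. Beside Il1b, Ifng and Tnf, Osm fell from a mean of 40.6 (23.5 without WT 2) to 2.62 FPKM (limma, adjusted p = 0.00709), Ltb from 178 (93.0 without WT 2) to 25.3 FPKM (adjusted p = 0.0203, and up to 0.0865 without a KO library) and Lta from 1.98 to 0.490 FPKM. Tgfb3 rose from 0.283 to 4.73 FPKM and Il10 from 0.647 to 3.49 FPKM (limma, adjusted p = 0.0355 for Il10), so the levels of these factors went both ways. Tgfb3 passed the filter only through KO, and Tnf and Lta only through WT, so these calls were favoured by the filter. Mif had means of 211 and 202 FPKM and did not pass (limma, adjusted p = 0.749), although it passed without WT 2 as higher in KO (adjusted p = 0.00836). Lta lost its call under 11 of 17 alternatives and Il10 under 8 of 17, with WT 1 or any KO library left out among them (up to 0.151 and 0.0994).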
